A study of Homo sapiens with 12 samples.

Results

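Genes of cholesterol and fatty acid synthesis were followed in PANC-1 and SW1990 cells, which are lines derived from human pancreatic ductal cancers. The genes were taken from a list of 30 symbols of the sterol pathway, the fatty acid pathway and their regulators. Of these, 28 were measured, each by 1 probe set with a single gene symbol, among 22411 genes in all. FDFT1 was not named by the annotation used here, and FADS1 shared its probe set with a microRNA gene and was left out. The list has a sterol branch of 19 measured genes and a fatty acid branch of 9.

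Expression was measured on 12 arrays in 4 groups of 3. They are SW1990 labelled GLI1 (replicates LIP, LIP-1 and LIP-2), SW1990 labelled control (a, b and c), PANC-1 labelled GLI1 (LIP, LIP-1 and LIP-2) and PANC-1 labelled control (S10, S11 and S8). Per the labels, the GLI1 arrays are of cells given a GLI1 plasmid with a lipid reagent, GLI1 being a transcription factor that carries out Hedgehog signalling, and the control arrays of cells given the corresponding control. Both lines were grown alike in DMEM with serum, and each line is a single cell line, so a line difference is a difference between a pair of lines. The labels do not say whether replicates were separate cultures, so the p-values measure only the spread between these arrays, which may be technical. The meaning of LIP in the replicate names was not given.

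Before the results, 3 features of the arrays bear on them. The transfected gene ran against its label. GLI1 had a log2 level of 7.00, 6.90 and 6.77 in SW1990 labelled GLI1, against 11.82, 11.84 and 11.76 in SW1990 labelled control, and 7.76, 8.0 and 8.04 in PANC-1 labelled GLI1, against 11.50, 11.54 and 11.46 in PANC-1 labelled control. Groups are therefore called by their labels throughout, and every direction below is that of the labels. Array S8 stood apart from the other PANC-1 control arrays. Over all genes it correlated at 0.987 and 0.988 with S10 and S11, and at 0.989 to 0.992 with LIP, LIP-1 and LIP-2 of PANC-1. Of the epithelial keratins, KRT8 and KRT18 had group means of 10.95 to 12.48 and KRT7 of 7.94 to 8.09, while KRT19 had 11.53 and 11.29 in SW1990 but 8.82 and 8.22 in PANC-1 (labelled GLI1 and control). The duct markers EPCAM and CDH1 had means of 10.80 to 11.13 in SW1990 but 6.78 to 7.01 in PANC-1. The 5th percentile and the median of all genes were 3.56 and 7.23. Against these, the group means ran from 3.42 to 6.80 for the 4 leukocyte markers, from 2.94 to 6.95 for the 4 of adipocytes and from 3.73 to 7.2 for the 4 of hepatocytes. They ran from 4.34 to 7.61 for the 4 endothelial markers, the highest being KDR in PANC-1, and from 3.19 to 9.49 for the 4 of fibroblasts, the highest being COL1A1 in PANC-1 (9.49 and 8.52 under the GLI1 and control labels).

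Cells make cholesterol from acetyl-CoA through mevalonate, farnesyl diphosphate, squalene and lanosterol, and make fatty acids from the same acetyl-CoA through malonyl-CoA. Both pathways are driven by the sterol regulatory element-binding proteins, transcription factors held in the endoplasmic reticulum until sterols run low. SREBF2 encodes the factor best known for sterol genes and SREBF1 the one best known for fatty acid genes. INSIG1 encodes an anchor that retains these factors in the membrane, and it is itself one of their targets, so the system feeds back on itself.

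Promoter sequence is shown for 6 genes because the list is known for shared control and its members moved together between arrays. Of the 28 measured genes, 26 had a promoter in the RefSeq table of GRCh38.p14, which covers 250 bases before to 50 bases after a start. FASN and SQLE were not among them. Each line gives 180 bases, from 190 to 11 bases before the start, in the direction of the gene. Capitals mark CCAAT, the letters bound by the factor NF-Y, and TCACNCNAC, a loose form of the sterol regulatory element, each on either strand, and the 2 did not overlap in these windows. INSIG1, STARD4 and MSMO1 stand for genes with a wide spread between arrays, SREBF2 and FDPS for those holding both motifs, and PMVK for the steadiest gene.
INSIG1: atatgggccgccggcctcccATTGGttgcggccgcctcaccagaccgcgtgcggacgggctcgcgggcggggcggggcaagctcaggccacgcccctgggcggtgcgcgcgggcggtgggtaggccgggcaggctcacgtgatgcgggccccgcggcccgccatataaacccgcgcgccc
STARD4: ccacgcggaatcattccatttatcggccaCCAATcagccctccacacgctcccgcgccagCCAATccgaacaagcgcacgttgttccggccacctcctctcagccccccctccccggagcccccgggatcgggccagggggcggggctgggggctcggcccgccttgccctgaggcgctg
MSMO1: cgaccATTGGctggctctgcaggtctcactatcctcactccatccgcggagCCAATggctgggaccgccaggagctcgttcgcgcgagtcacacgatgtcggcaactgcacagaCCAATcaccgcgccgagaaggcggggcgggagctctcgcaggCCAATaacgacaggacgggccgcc
SREBF2: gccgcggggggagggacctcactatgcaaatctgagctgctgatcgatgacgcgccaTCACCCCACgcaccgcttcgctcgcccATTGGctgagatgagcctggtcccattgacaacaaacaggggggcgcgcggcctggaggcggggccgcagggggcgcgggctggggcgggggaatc
FDPS: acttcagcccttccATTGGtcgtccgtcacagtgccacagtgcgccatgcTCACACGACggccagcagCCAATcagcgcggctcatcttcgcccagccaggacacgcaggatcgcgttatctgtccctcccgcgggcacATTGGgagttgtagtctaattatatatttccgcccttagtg
PMVK: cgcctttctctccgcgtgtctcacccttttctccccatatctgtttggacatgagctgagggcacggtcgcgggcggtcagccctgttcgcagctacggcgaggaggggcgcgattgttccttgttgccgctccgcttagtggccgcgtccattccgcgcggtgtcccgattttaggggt

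The windows lie at chr7:155297688-155297867 (plus strand) for INSIG1, chr5:111512546-111512725 (minus strand) for STARD4 and chr4:165327479-165327658 (plus strand) for MSMO1. Those of SREBF2, FDPS and PMVK lie at chr22:41832915-41833094 (plus strand), chr1:155308676-155308855 (plus strand) and chr1:154936730-154936909 (minus strand). CCAAT occurred 4 times in the MSMO1 window, 3 times in that of FDPS, 2 times in that of STARD4 and not in that of PMVK. Over the full promoters, CCAAT was found in 21 of 26 members (80.8%), against 39.7% of the 27305 genes with a promoter in the table. TCACNCNAC was found in 5 members (19.2%), namely FDPS, HSD17B7, SREBF2, FADS2 and ACSS2, against 3.13% of all. GGGCGG, the letters bound by SP1, was found in 25 members (96.2%), against 48.3% of all. The stricter form TCACNCCAC of the sterol element was found only in SREBF2 among the members, and in 1.39% of all genes. A gene with several promoters was counted when any of them held the letters. The comparison with all promoters was not limited to measured genes and not matched for level or base composition. The shares are therefore not read as particular to the pathway. These matches describe the letters in the windows and were not tied to any binding.

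The members were far less steady between replicate arrays than other genes in 3 of the 4 groups. The median SD of the members over 3 arrays was 0.27 in SW1990 labelled GLI1, 0.06 in SW1990 labelled control, 0.53 in PANC-1 labelled GLI1 and 0.54 in PANC-1 labelled control, on the log2 scale. The medians of all genes were 0.08, 0.07, 0.08 and 0.10 in the same groups. The 95th percentile of all genes, which 5% of genes exceed, was passed by 14 members in SW1990 labelled GLI1, 26 in PANC-1 labelled GLI1 and 21 in PANC-1 labelled control, and by 0 in SW1990 labelled control. The SW1990 control arrays therefore held these genes as steadily as the rest of the transcriptome. These spreads are descriptions with no test. The arrays measured bulk RNA, so less RNA per cell and fewer cells making it cannot be told apart.

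**Figure D1:**
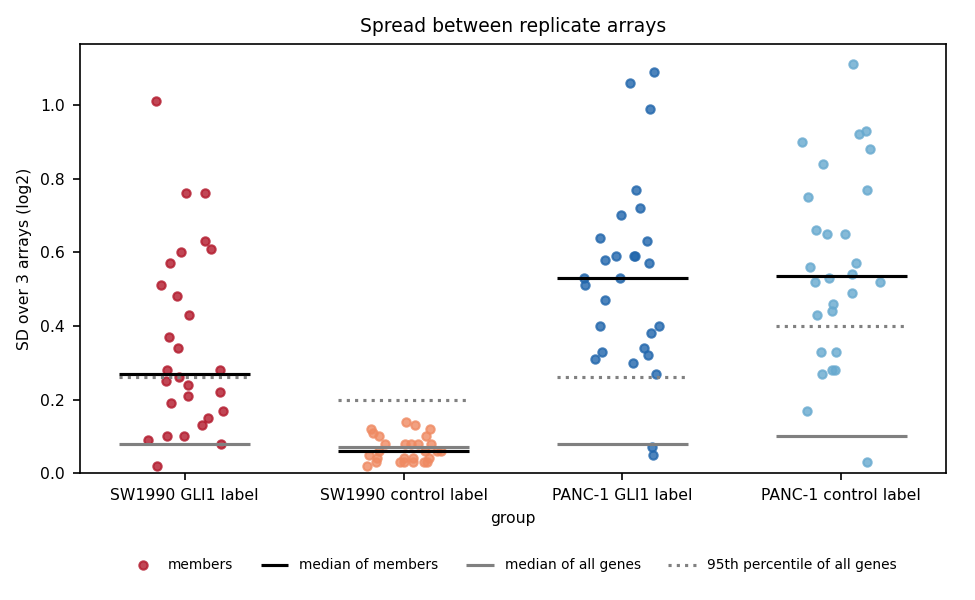
SD over the 3 arrays of a group (log2) for each of the 28 members (points), with the median of the members and the median and 95th percentile of all genes, in the 4 groups by label. The members lie near the median of all genes in SW1990 labelled control, and 26 of 28 lie above the 95th percentile in PANC-1 labelled GLI1.

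The spread had the same shape for nearly all members. Array LIP was the lowest of its group for 27 of 28 members in SW1990 labelled GLI1 and for 28 of 28 in PANC-1 labelled GLI1, where 31.1% and 42.3% of all genes were lowest in those arrays. In PANC-1 labelled control, S11 was the lowest array for 27 members and S8 the highest for 25, against 31.0% and 42.4% of all genes. The median level of the members was 8.57 in LIP, 9.29 in LIP-1 and 9.32 in LIP-2 of SW1990, and 8.46, 9.41 and 9.58 in the same order in PANC-1. It was 9.36, 9.43 and 9.44 in the SW1990 controls a, b and c, and 8.98, 8.37 and 9.74 in the PANC-1 controls S10, S11 and S8. The LIP arrays and S11 had similar medians, and the SW1990 controls, LIP-1, LIP-2 and S8 lay well above them.

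Set against the mean of LIP-1 and LIP-2, LIP was lower by a median of 0.45 over the members in SW1990, as a log2 difference of -0.45 with a range of -1.75 (INSIG1) to 0.03 (PMVK). In PANC-1 the median was -0.90, with a range of -1.88 (INSIG1) to -0.08 (ELOVL6). All genes had medians of 0.01 and -0.02. The difference was below -1 for 6 members in SW1990 and 10 in PANC-1, against 0.125% and 0.165% of all genes. LIP-1 and LIP-2 differed from each other by a median of 0.02 in SW1990 and -0.14 in PANC-1. Among the PANC-1 controls, S11 minus S8 had a median of -1.07 with 17 members below -1, where 1.39% of all genes were, and S11 minus S10 a median of -0.51. In the LIP arrays the median deviations from the group mean for the sterol and the fatty acid branch were -0.42 and -0.18 in SW1990 and -0.66 and -0.39 in PANC-1.

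**Figure D2:**
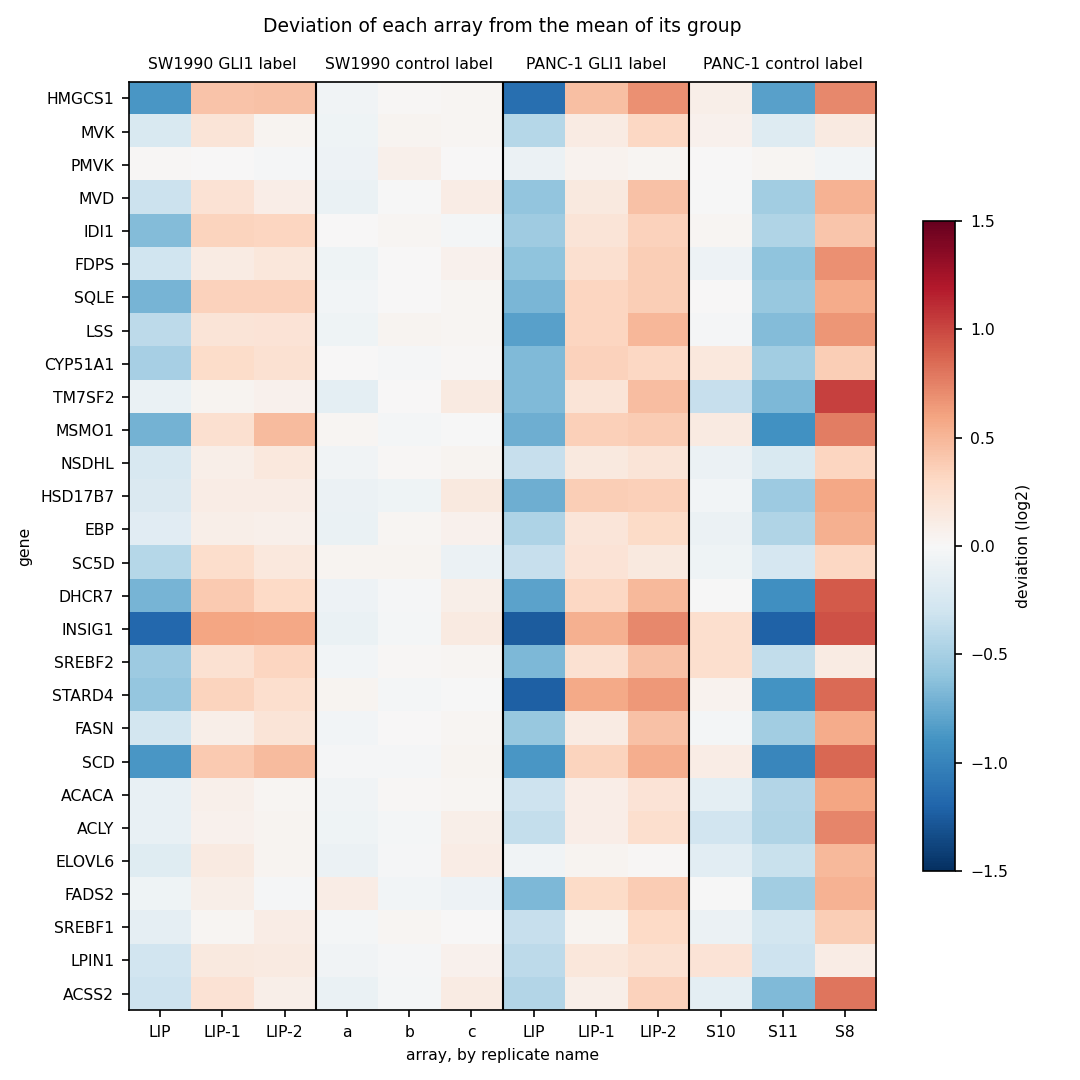
Deviation of each array from the mean of its group (log2, colour) for the 28 members (rows) in the 12 arrays (columns, by replicate name), with the 4 groups by label separated by lines. Both LIP arrays and S11 are low, S8 is high, the SW1990 controls are near 0 and PMVK is near 0 in every array.

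Deviations from group means were compared over the 12 arrays. The points share their 4 groups, and within a group they sum to 0, so the correlations are descriptions. Each member was set against the mean of the other members, and the median correlation was 0.96, with 21 of 28 above 0.9. Over all genes, set against the mean of the members, the median was 0.04 and 0.745% were above 0.9. The lowest members were PMVK at 0.13 and ELOVL6 at 0.77. MVD, LSS and DHCR7, enzymes of the mevalonate, lanosterol and last steps, were highest at 0.99.

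INSIG1 had the widest spread of all. Its log2 level was 8.23, 10.00 and 9.98 in SW1990 labelled GLI1 (LIP, LIP-1 and LIP-2), against 10.52, 10.59 and 10.75 in SW1990 labelled control (a, b and c). In PANC-1 it was 8.17, 9.95 and 10.14 in the arrays labelled GLI1, against 9.55, 8.08 and 10.25 in those labelled control (S10, S11 and S8). All GLI1-labelled arrays lay below the controls in SW1990, while in PANC-1 the groups overlapped and each held 1 array near 8. Differences are given on the log2 scale as arrays labelled GLI1 minus those labelled control, with an SE and a p-value from limma adjusted over all genes by Benjamini-Hochberg. The SE rests on a single spread per gene shared by all 4 groups, so an SE in SW1990 also holds the PANC-1 spread. The SD of INSIG1 was 1.01 and 0.12 in SW1990 and 1.09 and 1.11 in PANC-1 (labelled GLI1 and control). For INSIG1 the difference was -1.22 ± 0.65 (SE, n = 3 each, adjusted p = 0.241, limma) in SW1990 and 0.13 ± 0.65 (adjusted p = 0.956, limma) in PANC-1. The SW1990 difference was -0.63 without its array LIP.

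SREBF2 had levels of 8.53, 9.30 and 9.40 in SW1990 labelled GLI1, against 9.58, 9.64 and 9.66 in SW1990 labelled control. The PANC-1 levels were 7.73, 8.63 and 8.84 in the arrays labelled GLI1, against 8.82, 8.20 and 8.70 in those labelled control. The SW1990 groups did not overlap and the PANC-1 groups did. The differences were -0.55 ± 0.29 (adjusted p = 0.238, limma) in SW1990 and -0.17 ± 0.29 (adjusted p = 0.824) in PANC-1. Without its own array LIP, the SW1990 value was -0.27 and the PANC-1 value 0.16.

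SREBF1 spread less between arrays. It had 8.62, 8.79 and 8.87 in SW1990 labelled GLI1, against 8.86, 8.92 and 8.89 in SW1990 labelled control. Its PANC-1 levels were 8.33, 8.72 and 8.97 in the arrays labelled GLI1, against 8.42, 8.23 and 8.87 in those labelled control. The groups overlapped in both lines. The differences were -0.13 ± 0.17 (adjusted p = 0.688, limma) and 0.17 ± 0.17 (adjusted p = 0.668) in SW1990 and PANC-1.

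Among the mevalonate enzymes, HMGCS1, the synthase of an early step, was among the widest. Its levels were 7.55, 8.86 and 8.87 in SW1990 labelled GLI1, against 9.35, 9.43 and 9.44 in SW1990 labelled control. In PANC-1 they were 7.70, 9.29 and 9.52 in the arrays labelled GLI1, against 9.10, 8.20 and 9.73 in those labelled control. The SW1990 groups were apart, at -0.98 ± 0.51 (adjusted p = 0.232, limma), and the PANC-1 groups overlapped, at -0.17 ± 0.51 (adjusted p = 0.916). Without its own array LIP, the SW1990 difference was -0.54 and the PANC-1 difference 0.40. Of the other enzymes from mevalonate to farnesyl diphosphate, MVK, MVD, IDI1 and FDPS were lower in LIP than in LIP-1 and LIP-2 by differences of -0.35 to -0.98 in SW1990 and -0.64 to -0.91 in PANC-1.

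PMVK, the kinase that adds the next phosphate to phosphomevalonate, was the exception among them. It had 8.14, 8.12 and 8.10 in SW1990 labelled GLI1, against 7.81, 7.96 and 7.89 in SW1990 labelled control. PANC-1 had 8.42, 8.56 and 8.53 in the arrays labelled GLI1, against 8.30, 8.33 and 8.26 in those labelled control. LIP of PANC-1 was the lowest of its group by a small difference of -0.12 from the mean of LIP-1 and LIP-2, and S11 was not low. The groups of PMVK did not overlap in either line. It rose by 0.24 ± 0.06 in the GLI1-labelled arrays of SW1990 (1.18-fold, adjusted p = 0.0118, limma) and by 0.20 ± 0.06 in those of PANC-1 (1.15-fold, adjusted p = 0.0431). In PANC-1 the call ended without 10 of the 12 arrays, taken out in turn, with adjusted p up to 0.159, and in SW1990 it ended without control array a (adjusted p = 0.0580). Over all alternatives its adjusted p ranged from 0.00646 to 0.0580 in SW1990 and from 0.00251 to 0.237 in PANC-1.

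From squalene to cholesterol, DHCR7, the reductase of a last step, had 9.90, 10.99 and 10.90 in SW1990 labelled GLI1, against 10.72, 10.78 and 10.88 in SW1990 labelled control. In PANC-1 it had 10.20, 11.31 and 11.49 in the arrays labelled GLI1, against 10.69, 9.78 and 11.62 in those labelled control. Both pairs of groups overlapped, and LIP and S11 alone were near or below 10.2. The differences were -0.20 ± 0.46 (adjusted p = 0.838, limma) in SW1990 and 0.30 ± 0.46 (adjusted p = 0.798) in PANC-1. The other 9 enzymes of this stretch, SQLE, LSS, CYP51A1, TM7SF2, MSMO1, NSDHL, HSD17B7, EBP and SC5D, were lower in LIP by differences of -0.15 (TM7SF2) to -1.07 (MSMO1) in SW1990 and -0.52 (NSDHL) to -1.23 (LSS) in PANC-1.

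STARD4, a carrier that moves cholesterol between membranes, had 8.0, 8.91 and 8.83 in SW1990 labelled GLI1, against 9.76, 9.69 and 9.71 in SW1990 labelled control. In PANC-1 it had 6.05, 7.84 and 7.92 in the arrays labelled GLI1, against 7.32, 6.37 and 8.12 in those labelled control. All 3 GLI1-labelled SW1990 arrays were below all 3 controls, and the PANC-1 groups overlapped. The differences were -1.14 ± 0.51 (adjusted p = 0.158, limma) and 0.00 ± 0.51 (adjusted p = 0.998) in SW1990 and PANC-1. With the 6 SW1990 arrays fitted alone, the first had an adjusted p of 0.00807, the lowest over the alternatives, and the highest was 0.381, without array LIP.

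In the fatty acid branch, SCD, the desaturase that makes oleate from stearate, had 10.38, 11.65 and 11.73 in SW1990 labelled GLI1, against 12.21, 12.21 and 12.27 in SW1990 labelled control. The levels in PANC-1 were 11.40, 12.61 and 12.82 in the arrays labelled GLI1, against 12.32, 11.22 and 13.07 in those labelled control. The SW1990 groups were apart, at -0.98 ± 0.50 (adjusted p = 0.220, limma), and the PANC-1 groups overlapped, at 0.07 ± 0.50 (adjusted p = 0.969). The SW1990 difference was -0.54 without LIP. FASN, ACACA, ACLY, ELOVL6, FADS2 and ACSS2, which supply acetyl-CoA or build, lengthen and desaturate the chain, were lower in LIP by differences of -0.10 to -0.47 in SW1990 and -0.08 to -1.01 in PANC-1.

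LPIN1, a phosphatidate phosphatase of glycerolipid synthesis, was the member called lower by label. It had 7.45, 7.88 and 7.87 in SW1990 labelled GLI1, against 8.45, 8.48 and 8.57 in SW1990 labelled control. In PANC-1 it had 7.34, 7.91 and 7.96 in the arrays labelled GLI1, against 8.51, 8.0 and 8.42 in those labelled control. The groups did not overlap in either line. It fell by 0.77 ± 0.18 on the log2 scale in SW1990 (1.70-fold, adjusted p = 0.0116, limma), while the PANC-1 difference of -0.57 ± 0.18 had an adjusted p of 0.0697 (0.0277 to 0.397 over the alternatives). The SW1990 call held under all alternatives but the 0.01 threshold, with adjusted p of 0.0019 to 0.0477.

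**Figure D3:**
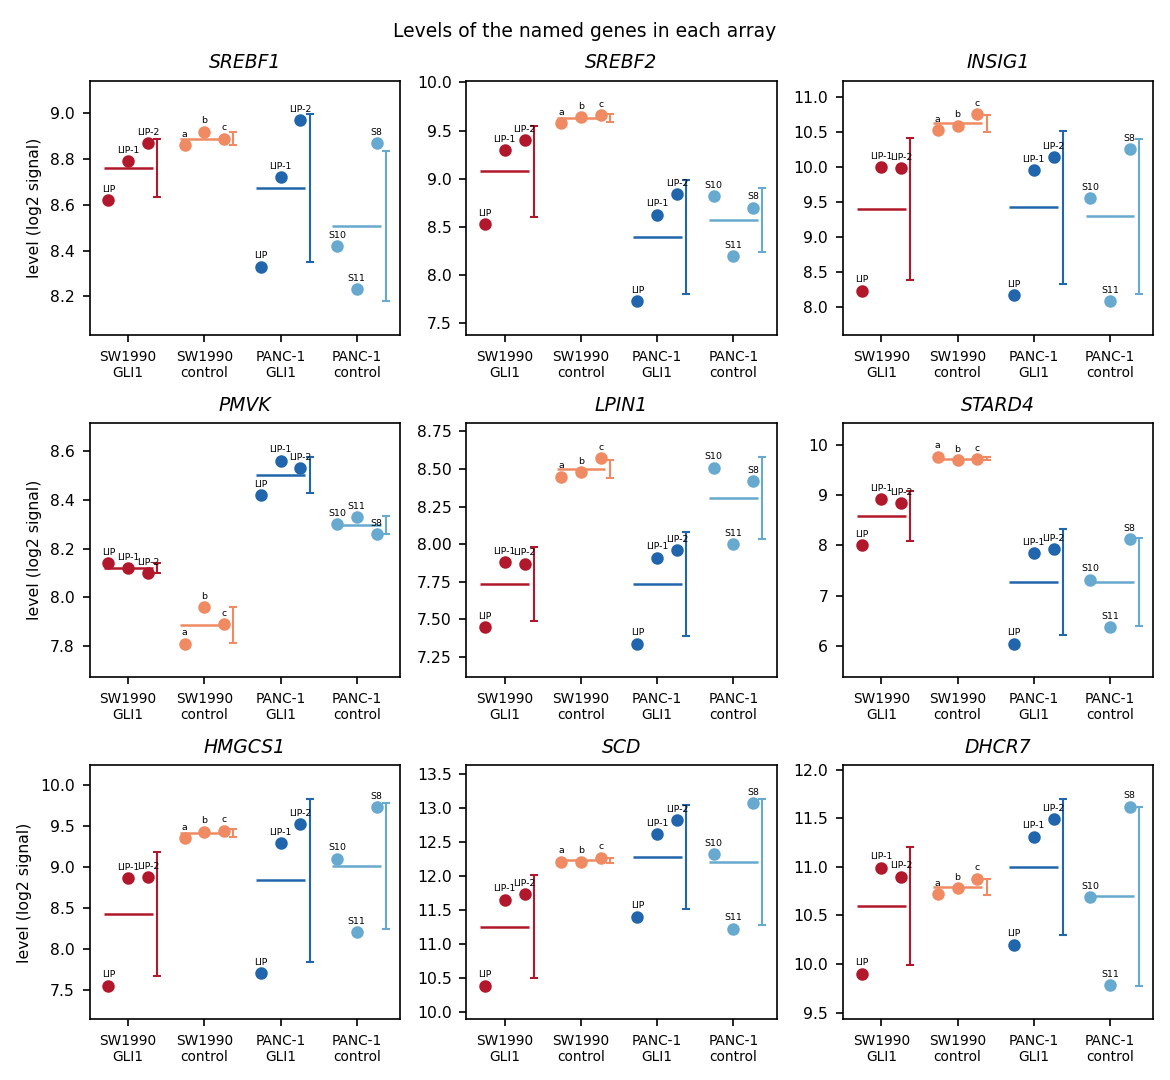
Log2 level of 9 members in each of the 12 arrays (points, named by replicate), with the mean of each group by label (line) and its SD over 3 arrays (bar). Array LIP is the lowest of its group for every gene shown except PMVK in SW1990, and S11 is the lowest PANC-1 control for every gene shown except PMVK.

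By label, 1 of 28 members was called higher and 1 lower in SW1990 at an adjusted p under 0.05, where 9.30% of all genes were called higher and 9.62% lower. Those members were PMVK and LPIN1. The median difference of the members was -0.24, against 0.01 for all genes, and 15 members lay wholly below and 5 wholly above the control arrays, while 8 overlapped. At an unadjusted p under 0.05, 6 passed. Shares of all genes were not computed for the overlap or the unadjusted p, so neither count is read as particular to the members. The median SE was 0.29 for members and 0.08 for all genes. With the SW1990 arrays fitted alone, which leaves out the PANC-1 spread, 3 members were called higher and 6 lower, where 11.9% and 12.4% of all genes were. Without array LIP the median was -0.07, and without LIP-1 it was -0.38.

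In PANC-1, 1 member was called higher, again PMVK, and 0 lower, where 4.39% of all genes were called higher and 5.25% lower. Of the members, 26 overlapped and 2 passed an unadjusted p under 0.05, and the shares of all genes were again not computed. The median difference was 0.12 (all genes 0.00). This median turned on single arrays. It was 0.44 without LIP or without S8, -0.06 without LIP-2 and -0.13 without S11. Without S8, 5 members were called higher, namely ACACA, ACLY, EBP, ELOVL6 and TM7SF2, in a fit that called 13.3% of all genes higher. With limma's array weights, 24 members were called higher, where 22.5% of all genes were. These weights were smallest for S8 (0.165) and 0.423 for LIP of PANC-1. In PANC-1 they were largest for LIP-1 (4.152) and for S11 (3.225), the lowest control array for 27 members. That fit thus compares mostly LIP-1 with S11, and its count is no separate support. Also 24 members were called higher without both LIP arrays and S8, where 15.8% of all genes were. Members were seen to be low in LIP and high in S8 before these arrays were left out. Their difference therefore rises by construction, and the count is no separate support.

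**Figure D4:**
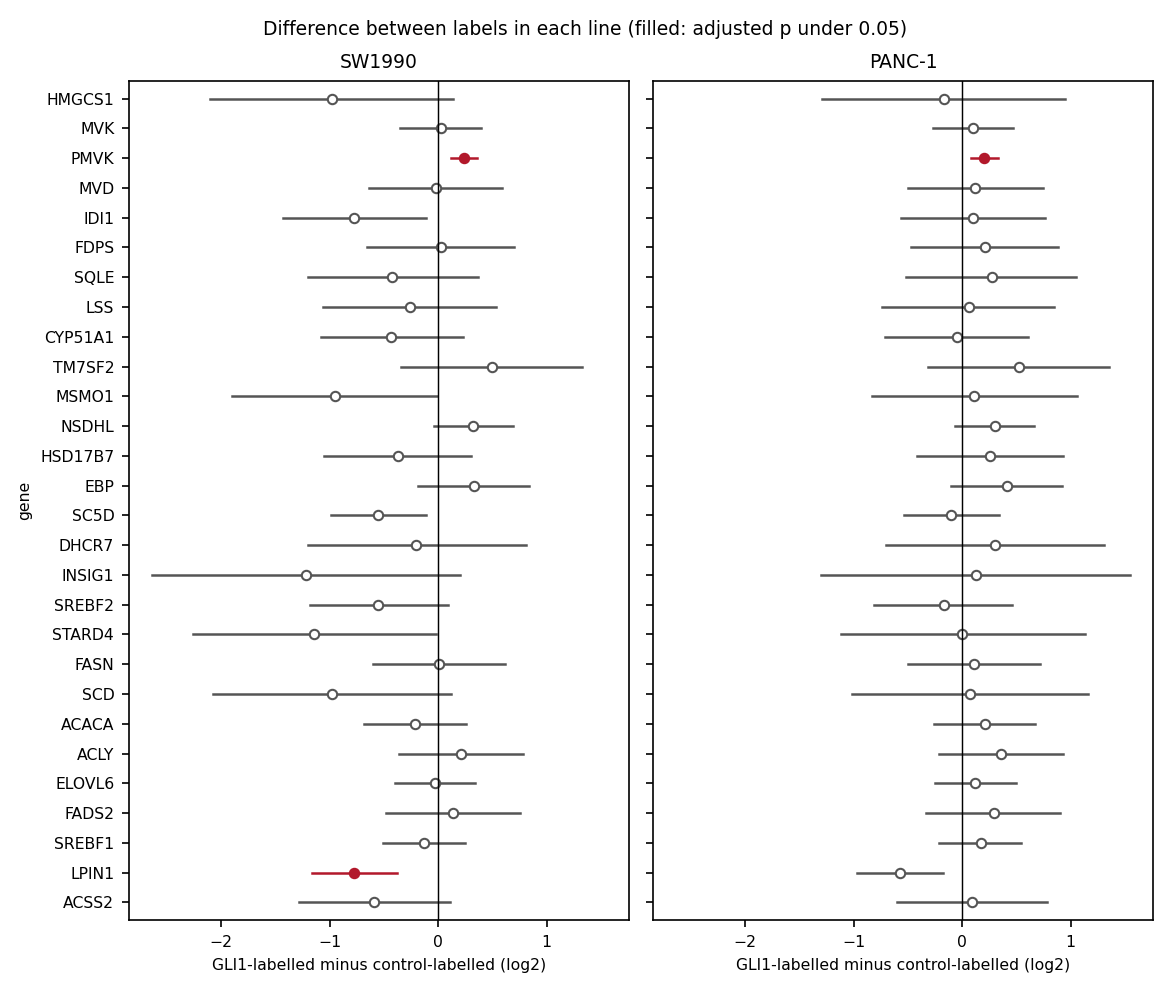
Log2 difference of the GLI1-labelled minus the control-labelled arrays with its 95% confidence interval for the 28 members in SW1990 and PANC-1 (filled red points have an adjusted p under 0.05). PMVK is above 0 in both lines, LPIN1 is below 0 with a call in SW1990, and the intervals of most other members cross 0.

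The effect of the label in SW1990 minus that in PANC-1 was below 0 for 26 of 28 members. Its median was -0.35 (all genes 0.01) and its lowest value -1.34 ± 0.91 for INSIG1. The share of all genes below 0 was not computed, and the members moved together between arrays, so the 26 are not separate observations. No member was called, with 0 of 28 also at an unadjusted p under 0.05 in limma, where 2.39% of all genes were called either way. Array weights, uneven as given above, led to 18 calls, all lower, where 13.6% of all genes were called lower. The fit without S8 gave 2, both lower, where 8.66% were. The median of the members was -0.08 without S11, -0.13 without LIP of SW1990, -0.15 without LIP-2 and -0.23 without LIP-1 of PANC-1, -0.55 without S8 and -0.59 without LIP of PANC-1.

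In the fit of all arrays with equal weights, line differences were called for 10 members or fewer under each label. The shares of members called there were near or below those of all genes. Among controls, the share of members was above that of all genes with array weights and without both LIP arrays and S8, as given further below. Members named here outside the rule for named genes were chosen after their values were seen. Among the GLI1-labelled arrays, 2 of 28 members were called higher and 3 lower in SW1990 than in PANC-1, where 21.0% and 18.1% of all genes were called. Among the control-labelled arrays 7 were called higher and 3 lower, where 22.0% and 18.7% of all genes were called.

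FADS2, a desaturase of polyunsaturated fatty acids, was lower in SW1990. It averaged 8.21 ± 0.08 in SW1990 and 9.63 ± 0.59 in PANC-1 among GLI1-labelled arrays (SD, n = 3 each), a difference of -1.42 ± 0.28 (SE, adjusted p = 0.0016, limma), and the difference was -1.28 ± 0.28 (adjusted p = 0.00308) among controls. NSDHL, of the removal of sterol methyl groups, was lower by differences of -0.78 and -0.80 under the GLI1 and control labels, and PMVK by differences of -0.38 and -0.41. TM7SF2, a sterol reductase, was higher in SW1990 by 1.40 ± 0.38 (adjusted p = 0.0113) and 1.43 ± 0.38 (adjusted p = 0.0101) in the same order, and ELOVL6 by 0.56 and 0.72. These 5 were called under both labels.

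STARD4 was higher in SW1990 by 2.45 ± 0.51 among controls (5.48-fold, adjusted p = 0.0022, limma), and its difference among GLI1-labelled arrays was 1.31 ± 0.51 (adjusted p = 0.0643). SREBF2, ACSS2, IDI1 and ACACA were called among controls only, by 1.05, 1.04, 0.94 and 0.69, and whether the labels differ in this is the test above, which called no member. Leaving out S11, the count among controls was 6 in place of 10, where 36.4% and 40.6% of all genes were called.

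**Figure D5:**
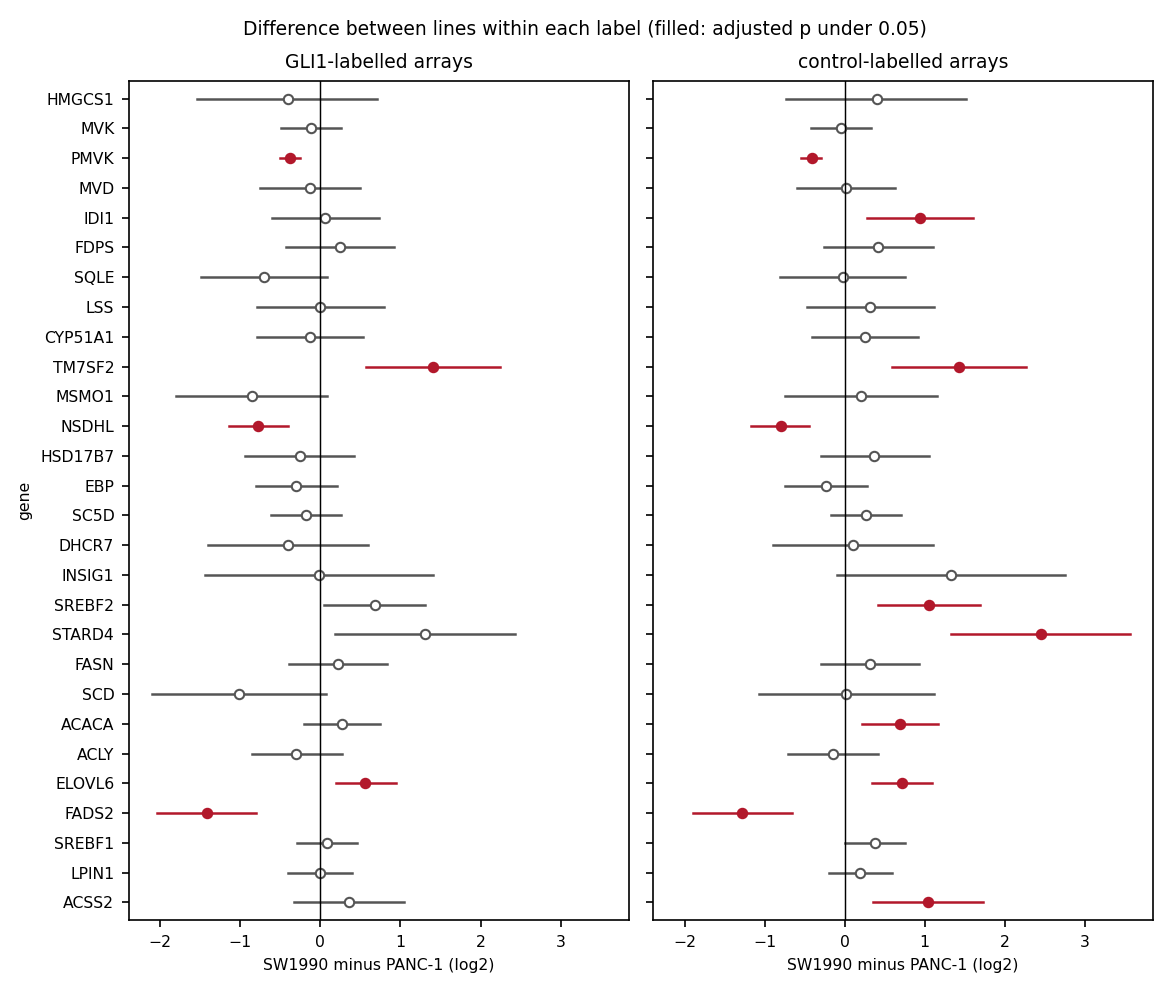
Log2 difference of SW1990 minus PANC-1 with its 95% confidence interval for the 28 members, among GLI1-labelled arrays (left) and control-labelled arrays (right), with filled red points at an adjusted p under 0.05. FADS2, NSDHL and PMVK are lower and TM7SF2 and ELOVL6 higher in SW1990 under both labels, and STARD4 is farthest from 0 among controls.

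Genes around the pathway were read from lists chosen with earlier results known. Their counts by label are read against the shares of all genes called, 9.30% higher and 9.62% lower in SW1990 and 4.39% higher and 5.25% lower in PANC-1. Of 6 measured genes that process the sterol factors or sense sterols, 1 was called higher in each line and 0 lower. It was SCAP, the escort of the factors to the Golgi, at 0.25 ± 0.06 in SW1990 (adjusted p = 0.0169, limma) and 0.34 ± 0.06 in PANC-1 (adjusted p = 0.0095). The 6 genes correlated with the members' mean deviation at a median of 0.16, from -0.15 to 0.61 (MBTPS1). SCAP and INSIG2 had 0.29 and 0.35. None of 8 oxysterol and LXR target genes was called by label in either line. Of 8 genes of sterol uptake and transport, 2 were called higher and 2 lower in SW1990 and 1 lower in PANC-1. OSBP, an oxysterol-binding carrier, was called lower in both lines (-0.40 and -0.32) and TMEM97, a membrane protein of cholesterol handling, higher in SW1990 (0.57).

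In the isoprenoid branch, which leaves the pathway at farnesyl diphosphate, 2 of 9 genes were called higher and 3 lower in SW1990, and 1 each in PANC-1. FNTA, a subunit of the farnesyl and geranylgeranyl transferases, was lower in both (-0.47 and -0.22). Of 13 other genes of fatty acid synthesis and activation, 2 were higher and 5 lower in SW1990, led by ACSL1 (-0.63), which activates fatty acids, and ME1 (-0.73), which supplies NADPH. In PANC-1 1 was higher, the elongase ELOVL5 (0.47), and 3 lower, led by ELOVL7 (-0.53). The same list also holds ACAT2, of the step from acetyl-CoA toward mevalonate, which was not called in either line. Of 9 genes of glycerolipid synthesis, 2 were higher in each line and 0 lower, with DGAT2, of triglyceride formation, at 0.48 and 0.45. Of 12 genes of fatty acid oxidation, 3 were higher and 1, PPARA (-0.55), lower in SW1990, and 0 were called in PANC-1.

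Interferon-stimulated genes moved with the label and with S8. Of 14 measured, 14 were called lower in SW1990 labelled GLI1 and 5 in PANC-1 labelled GLI1. Their median level was 5.84, 6.14 and 6.02 in SW1990 labelled GLI1, against 10.47, 10.63 and 10.68 in SW1990 labelled control. It was 5.77, 6.02 and 6.03 in PANC-1 labelled GLI1, against 6.82, 6.18 and 9.31 in S10, S11 and S8. S11 was thus lowest and S8 highest among the PANC-1 controls in both sets of genes, and LIP had the lowest median of its group in both sets and both lines. The median deviation of LIP from its group mean was -0.16 and -0.09 for the interferon genes, and -0.30 and -0.60 for the members, in SW1990 and PANC-1. In the integrated stress response, 6 of 8 genes were called lower in SW1990 and 7 in PANC-1, with DDIT3 at -1.93 and -2.06. The part of either set in the members' values was not tested.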

How the data were processed

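The members and all gene lists were chosen with earlier results of these data known. The deposited file holds log2 values of 70523 probe sets in 12 arrays, made by the authors after a background correction and normalization described in the paper without tool names. The methods describe Agilent slides, mirVana extraction and a Cy3 dye, whereas the labels give Trizol and biotin and the probe sets are of an Affymetrix transcriptome array, so how these values were made is uncertain. Whether a probe set was detected above background is not used here. For arrays their number, 3 a group, limits the precision.

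Array medians ranged from 5.86 to 6.00, a gap of 0.133 that exceeded 0.1, so quantile normalization was applied. A single symbol was given to 23781 probe sets, several to 1543 and none to 45199, and only the first kind was used. A gene with more than 1 was read from its brightest on average, which left 22411 genes. A linear model of 4 group means without covariates was fitted to every gene in R 4.3.3 (limma 3.58.1, moderated by eBayes), and calls were made below 0.05 after Benjamini-Hochberg adjustment over all genes. The steps were tested on simulated data with 200 changed genes.

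Values in every array are given for SREBF1, SREBF2 and INSIG1, for members called by label, for the 5 members with the largest SD within a group and for any member whose label effects differed between lines. From each companion list at most 2 called genes per line are named, those with the smallest adjusted p. Correlations name further genes after their values were seen. Alternatives were the values as deposited, median centring, each line alone, array weights, limma-trend, the methods' t-test, the mean of probe sets, the dimmest 30% of genes left out, a 0.01 threshold, a replicate block and each array left out. Leaving out both LIP arrays, with or without S8, was added after seeing the data. The members were mostly lowest in LIP and highest in S8, so member counts without those arrays follow in part from that choice. Array weights ran from 0.165 (S8) to 4.152 (LIP-1 of PANC-1), so member counts with array weights rest mostly on few arrays. Summaries and figures used Python 3.11.15 with pandas 2.3.3, NumPy 2.4.6 and matplotlib 3.10.9.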

Additional observations from a re-analysis of the deposited data

How the results depend on the processing

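Member counts by label were small and moved with the arrays and the variance model, and the cause was not tested. In SW1990, 2 members were called, 9 with each line fitted alone, 7 with array weights, 5 with the LIP names as a replicate block, 9 without both LIP arrays and S8, 0 at an adjusted p under 0.01, and 1 to 3 with single arrays left out. All genes were called at 18.9%, 24.3%, 34.4%, 17.1%, 25.6% and 10.1% in the first 6 of these fits. With single arrays left out, 12.5% to 25.0% of all genes were called. The values as deposited turned the 9.30% higher and 9.62% lower of all genes into 12.5% and 7.17%, and the 0.910% and 1.48% for the difference of label effects into 1.05% and 1.02%. In PANC-1, 1 was called, 24 with array weights, 24 without both LIP arrays and S8, 0 with the values as deposited, median centring, the line alone, the methods' t-test or a 0.01 threshold, and 0 to 5 with single arrays left out, the 5 without S8. All genes were called at 9.64% there, 41.1% with array weights, 28.2% without both LIP arrays and S8, and 24.3% without S8. In the fits with 0 members called, in the order given, all genes were called at 9.39%, 7.26%, 0.384%, 0% and 2.29%. With the line alone or the t-test almost no gene was called, so the 0 there is no result about the members. With single arrays left out the share was 3.25% to 24.3%. With the replicate block the 5 SW1990 members were IDI1, LPIN1, PMVK, SC5D and SREBF2, and the 1 in PANC-1 was LPIN1 (adjusted p = 0.0277) in place of PMVK (adjusted p = 0.0759, limma). Between the label effects of the lines 0 members were called, 18 with array weights, 17 without both LIP arrays and S8, and 0 to 2 with single arrays left out, the 2 without S8, where all genes were called at 2.39%, 26.9%, 17.1% and 15.2% (without S8). Among control-labelled arrays 10 members differed between lines, 22 with array weights, 20 without both LIP arrays and S8, 5 with the methods' t-test, 5 at 0.01, and 6 to 13 with single arrays left out, where 40.6%, 56.2%, 45.6%, 29.8% and 31.4% of all genes were called in the first 5. The share of all genes was 35.5% to 43.2% with single arrays left out. Among GLI1-labelled arrays 5 differed, 12 with array weights, 8 with the replicate block, 13 without both LIP arrays and S8, and 3 at 0.01, where 39.1%, 51.2%, 37.9%, 42.0% and 30.1% of all genes were. In PANC-1 the sign of single members also turned. SREBF2 (-0.17) was 0.25 with array weights, 0.16 without both LIP arrays, 0.22 without those and S8, and -0.39 to 0.16 with single arrays left out. HMGCS1 (-0.17) was 0.78, 0.40, 0.76 and -0.58 to 0.40 in the same order. With single arrays left out, INSIG1 (0.13) ranged from -0.48 to 0.75, STARD4 (0.00) from -0.45 to 0.61, SCD (0.07) from -0.42 to 0.51 and DHCR7 (0.30) from -0.15 to 0.77. In SW1990, DHCR7 (-0.20) was 0.15 without both LIP arrays, with or without S8, and -0.39 to 0.15 with single arrays left out. Of 432 values of named genes under the alternatives, 376 kept their direction and side of the threshold. In many of these the direction could not change, as with the mean of probe sets or an array of the other line left out. The count is therefore no measure of robustness. The number of arrays, 3 a group, limits all of these counts. Within a line no name occurs under both labels, so the replicate block joins only the LIP names across lines. Deviations of same-named arrays over all genes correlated at 0.11, 0.02 and 0.06, and LIP-1 of SW1990 correlated best with LIP-2 of PANC-1 (0.08), so the names were not taken as pairs.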

Other observations

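Genes outside the list also deviated from their group means as the members did over the 12 arrays, given here as descriptions. They were chosen after their values were seen. ACAT2, which joins acetyl-CoA units in the cytosol toward mevalonate, had a correlation of 0.98 with the members' mean deviation. SLC25A1, the mitochondrial citrate carrier, had 0.97, PCYT2, of phosphatidylethanolamine synthesis, 0.96, and TMEM97 0.94. ASNS, the asparagine synthetase of the integrated stress response, had 0.94 and the interferon-stimulated gene IFIT2 had 0.92. The median over 14 interferon-stimulated genes was 0.68, over 9 genes of the isoprenoid branch -0.04 and over 8 genes of the integrated stress response -0.17. NPC1, which exports cholesterol from lysosomes, had 0.30.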
